A study of Mus musculus with 30 samples.

Results

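The sterol genes described here are 8 genes of sterol synthesis, its feedback control and its transcriptional control, followed in mouse embryonic fibroblasts (MEFs) under stress. Hmgcs1, Idi1, Fdft1, Sqle and Lss encode enzymes of the pathway, Insig1 encodes its feedback protein, and Srebf1 and Srebf2 encode its transcription factors. The members were taken by name, as every probe whose gene name on the array was one of these, which gave 17 probes of 8 genes among 33453 named probes of 21689 genes.

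The study asked which transcriptional responses to stress depend on p38α, a stress-activated protein kinase encoded by Mapk14. On each of 30 arrays, red-labelled RNA from 1 culture was hybridised against the same green-labelled pool of RNA from 2 untreated wild type cultures, and every value below is the log2 ratio of the culture over that pool unless a difference is named. There were 15 groups with 2 replicates each, from independent experiments. The pool was the only untreated wild type material, so its spread between cultures was not measured and all comparisons against it share it.

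Wild type MEFs received anisomycin (25 ng/ml, 45 min), a translation inhibitor used here below a full block of protein synthesis, TNFα (100 ng/ml, 45 min), an inflammatory cytokine, or NaCl (100 mM), an osmotic stress, for 45 min, 2 h or 8 h. Each of these 5 treatments was also given after SB203580, an inhibitor of p38α and p38β, and 1 further group received SB203580 alone. The methods give SB203580 as 10 µM for 30 min before the stress, whereas the sample names of all SB203580 groups give another unit and a 2 h exposure. In p38α-/- MEFs there were 4 groups at the same doses: no treatment, anisomycin for 45 min, TNFα for 45 min, and NaCl for 2 h. Both genotypes were immortalised MEFs, and nothing in the sources used here names more than 1 line per genotype, so genotype and line cannot be told apart.

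Cholesterol is built from acetyl-CoA through mevalonate, isoprenoids and squalene. When sterols are scarce in the endoplasmic reticulum, the membrane-bound SREBP proteins, encoded by Srebf1 and Srebf2, are carried to the Golgi and cut, and their released parts switch on the genes of synthesis and uptake. When sterols are plentiful, INSIG proteins hold SREBP back, and Insig1 is itself a target of SREBP. Fibroblasts in culture make sterols and take them up from serum, which made up part of the medium here.

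Short stretches of promoter are printed because the members are commonly studied as targets of one family of factors, and they show how far these letters are shared. Promoters of 250 bases before to 50 bases after the start were found for 6 of the 8 genes in RefSeq on GRCm38.p6, with 3 starts for Srebf1. They were searched on both strands for TCACNCCA, the form of a sterol regulatory element, for CACGTG, an E-box, and for CCAAT, the site of NF-Y. Each stretch of 30 bases is from the plus strand, with the match in capitals.
Hmgcs1, chr13:119690203-119690232, TCACNCCA 137 bases before the start: acgtcaccgtcTCACCCCActtcccaggtc
Srebf2, chr15:82147096-82147125, TCACNCCA 162 bases before the start: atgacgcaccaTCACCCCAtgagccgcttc
Insig1, chr5:28071299-28071328, CACGTG 101 bases before the start: gctgggtgaggtCACGTGgctccggtggca
Idi1, chr13:8885549-8885578, CCAAT on the minus strand 45 bases before the start: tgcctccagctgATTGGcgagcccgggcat
Lss, chr10:76531531-76531560, CCAAT on the minus strand 62 bases before the start: ggtgatgctctgATTGGccgagctcgcatc
Hmgcs1 and Srebf2 held the same 8 letters of the sterol element, and the other genes of the 6 held no TCACNCCA. CACGTG was found in Insig1 only. CCAAT was found in all 6 genes, though not at every start of Srebf1, and is printed for Idi1 and Lss only. No stretch is printed for Srebf1. TCACNCCA was present in 4.36% of the 32851 promoters of this table, CACGTG in 7.15% and CCAAT in 37.4%, and a match describes these letters only, without showing that a factor binds.

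The members were bright on the arrays, with 0 saturated spots and 0 spots that were not well above background among 510. The image software had marked 216 of the 510 member spots (42.4%) as outliers, against 19.9% of all spots and 47.7% of spots at or above the members' median pool signal. With those spots left out, Fdft1 and Srebf2 were measured on 30 arrays, Insig1 on 26, Sqle on 25, Idi1 on 23, Srebf1 on 21, Lss on 19 and Hmgcs1 on 12. Leaving spots out also changed which probes of a gene were averaged on an array. For this reason the values of single arrays are given with all spots kept, and each test is given with the outlier spots left out, which is the principal setting, and with them kept.

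The 8 fibroblast markers looked for were well above background on all 30 arrays, from the 42.0 (Pdgfrb) to the 99.7 percentile of pool signal (Col3a1), with Col1a1, Vim and Fn1 at 98.1, 99.0 and 96.2. The 11 markers of epithelial, endothelial and blood cells were also well above background, Cdh5 on 28 arrays and the others on 30, between the 20.1 (Cdh5) and the 88.1 percentile (Krt18), so that some lay above some fibroblast markers, and brightness on an array does not rank the levels of different probes. These are bulk cultures, in which fewer cells expressing a gene and less RNA per cell cannot be told apart.

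Replicates carried a shared shift. Hmgcs1, Sqle, Idi1 and Lss were higher in replicate 1 than in replicate 2 in 11 of 11 wild type groups, by medians of 0.54, 0.55, 0.63 and 0.16 on the log2 scale. Insig1 and Fdft1 were higher in replicate 1 in 9 of 11. In p38α-/- MEFs, Hmgcs1, Sqle, Idi1, Fdft1 and Lss were higher in replicate 1 in 4 of 4 groups. Wild type replicate 1 was scanned as 1 batch of 11 arrays, wild type replicate 2 and p38α-/- replicate 1 together as 15, and p38α-/- replicate 2 as 3 arrays and 1 array. Because the shift recurred across groups, a fit with the replicate as a block within each genotype is given beside the results below where it moved a call, and counts for the other comparisons stand with the alternatives. Within a genotype the shift drops out of a difference between groups. Against the pool and between genotypes it does not, and there the block takes it out of the SE. Calls of the block in those comparisons therefore leave out this spread between replicates.

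**Figure D1:**
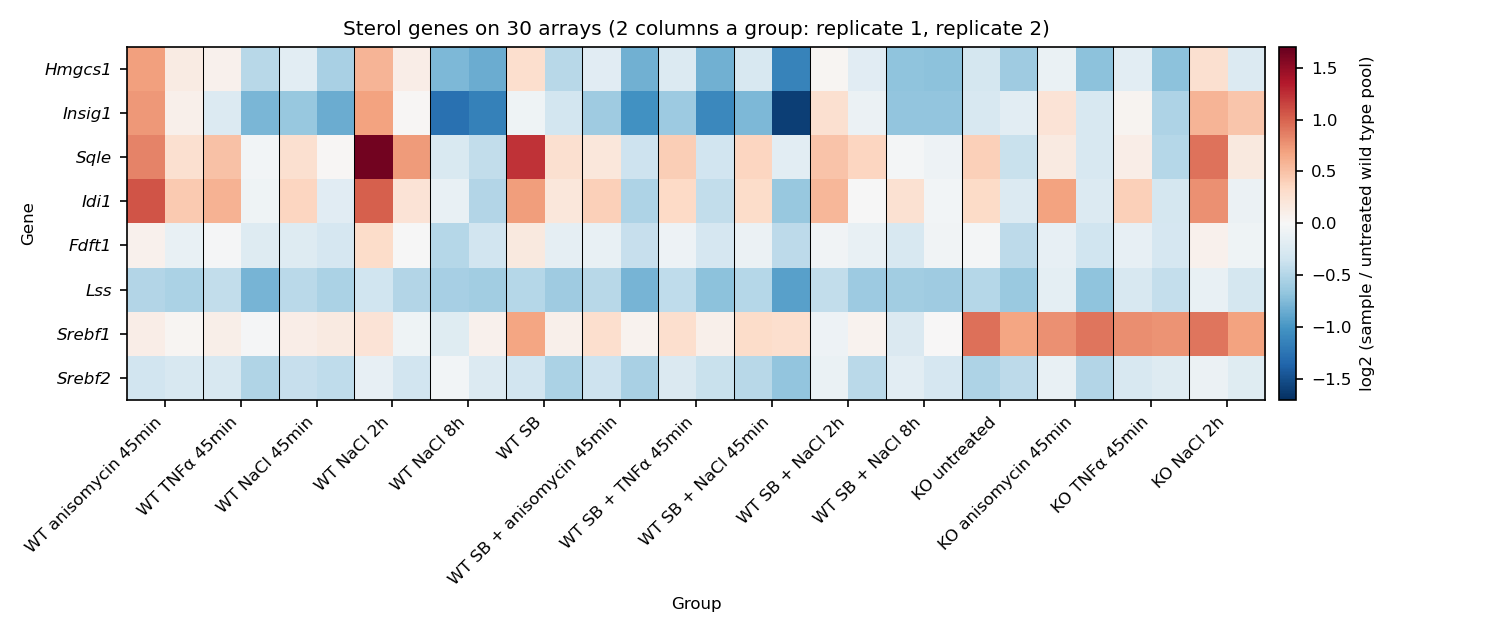
Log2 ratio of each of the 8 genes (rows) on each of the 30 arrays (columns, by group and replicate) over the pool of untreated wild type MEFs, all spots kept; red is above and blue below the pool. In wild type MEFs Hmgcs1, Insig1, Sqle and Idi1 lay above the pool in both replicates with anisomycin and with NaCl for 2 h, Hmgcs1, Insig1, Sqle, Idi1, Fdft1 and Lss lay below it in both with NaCl for 8 h, and Srebf1 was high on the 8 p38α-/- arrays.

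The 3 differences between groups that were called in the principal setting all lay in the NaCl time course of wild type MEFs. Sqle, Insig1, Hmgcs1, Idi1 and Fdft1 stood higher at 2 h than at 8 h on both replicates. Between 2 h and 8 h Insig1 fell 2.96-fold, Sqle 2.87-fold and Hmgcs1 2.23-fold with all spots kept. Lss, Srebf1 and Srebf2 were not called in this comparison.

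Sqle encodes squalene epoxidase, which adds the first oxygen on the way from squalene to sterols (chr15:59315092-59331193, GRCm38.p6, 1 probe). Its log2 ratio was 0.27 and 0.02 in replicates 1 and 2 after 45 min of NaCl. It then stood at 1.64 and 0.72 at 2 h, and at -0.26 and -0.42 at 8 h. Both arrays at 2 h lay above both at 45 min and both at 8 h, although replicate 1 at 2 h stood well above replicate 2. Against the pool, Sqle at 2 h was higher by 1.18 ± 0.27 (SE, n = 2, limma adjusted p = 0.0143), and it was the 1 member called of 8 tested, where 5.24% of all genes were called higher. Without replicate 1 at 2 h this fell to 0.72 (adjusted p = 0.474). With the replicate block Idi1 was called above the pool at 2 h as well (0.62, adjusted p = 0.019), where 8.99% of all genes were called higher. With all spots kept and the block, Sqle, Idi1 and Hmgcs1 (0.35, adjusted p = 0.0366) were called, beside 11.4% of all genes. From 2 h to 8 h Sqle fell by 1.52 ± 0.38 (adjusted p = 0.0252).

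Insig1 (chr5:28071412-28078662, GRCm38.p6, 2 probes) followed the same course from a lower start. Its log2 ratio was -0.64 and -0.85 at 45 min, 0.69 and 0.03 at 2 h, and -1.27 and -1.14 at 8 h. The 8 h arrays were the lowest of the 6 and did not overlap the others. The share of all genes without overlap between these times was not counted. With NaCl for 8 h, Insig1 was below the pool at -1.50 ± 0.29 (SE, n = 2, limma adjusted p = 0.00136), and Fdft1 was the other member called lower of 7 tested, where 11.2% of all genes were called lower. Without replicate 2 at 8 h neither was called (adjusted p = 0.0655 for Insig1 and 0.0774 for Fdft1). From 2 h to 8 h Insig1 fell by 1.90 ± 0.40 (adjusted p = 0.00879), and by 1.56 ± 0.30 with all spots kept (adjusted p = 0.00275). Its 2 probes fell by 1.35 and 1.78, each past the threshold when probes were tested singly.

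Hmgcs1 encodes the cytosolic HMG-CoA synthase, which makes the precursor of mevalonate (chr13:119690351-119708260, GRCm38.p6, 3 probes). Its log2 ratio was -0.17 and -0.55 at 45 min, 0.58 and 0.12 at 2 h, and -0.77 and -0.85 at 8 h. The 3 times did not overlap. After outlier spots were left out it was not measured on both 8 h arrays, so its test rests on all spots: it fell by 1.16 ± 0.34 from 2 h to 8 h (limma adjusted p = 0.0427). The probes were unequal, with falls of 1.80, 1.41 and 0.26, and the probe that fell by 1.80 was the 1 of the 3 that passed the threshold.

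Idi1 encodes the isomerase that interconverts the C5 isoprenoid units (chr13:8885606-8892396, GRCm38.p6, 2 probes). Its log2 ratio was 0.37 and -0.20 at 45 min, 1.02 and 0.23 at 2 h, and -0.12 and -0.50 at 8 h. The fall from 2 h to 8 h was 1.14 in replicate 1 and 0.72 in replicate 2. It was not called without the block, at -0.93 ± 0.53 (adjusted p = 0.385), and was called with the replicate block at the same difference (adjusted p = 0.0176), where 6.44% of all genes were called lower.

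Fdft1 encodes squalene synthase, the first enzyme committed to sterols (chr14:63145150-63181687, GRCm38.p6, 2 probes). Its log2 ratio was -0.22 and -0.28 at 45 min, 0.31 and -0.01 at 2 h, and -0.48 and -0.33 at 8 h, a smaller range than that of Sqle or Insig1. From 2 h to 8 h it fell by 0.74 ± 0.16 (adjusted p = 0.00874), and by 0.56 ± 0.17 with all spots kept (adjusted p = 0.0446). With NaCl for 8 h it was below the pool by -0.54 ± 0.12 (adjusted p = 0.00225). The A_51_P485946 probe fell by 0.92 and the other by 0.19, neither past the threshold singly.

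Counted together, 3 of 7 measured members fell from 2 h to 8 h, where 4.47% of all genes were called lower, and the median difference of the members was -0.74 beside -0.01 over all genes tested. Keeping all spots, 4 of 8 fell, where 4.59% of all genes did, and adding the block made it 5 of 8 beside 6.75%. The 3 calls depended on single arrays: without replicate 1 at 2 h the adjusted p became 0.0628 for Insig1, 0.234 for Sqle and 0.101 for Fdft1, and without replicate 2 at 8 h it became 0.076, 0.124 and 0.0685. Sqle was also lost without replicate 1 at 8 h (adjusted p = 0.0851). None of these 3 differences changed sign when an array was left out.

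The rise from 45 min to 2 h was in the same direction on both replicates for Hmgcs1, Insig1, Sqle, Idi1 and Fdft1. Insig1 gained 1.34 in replicate 1 and 0.88 in replicate 2, and Sqle gained 1.37 and 0.70. By limma, 0 of 3 measured members were called, with 2 at an unadjusted p under 0.05, and 0.0154% of all genes were called higher. When all spots were kept and the replicate block was used, Insig1 (adjusted p = 0.0244) and Sqle (adjusted p = 0.0279) were called, where 0.281% of all genes were called higher. Between 45 min and 8 h, 0 of 3 measured members were called and 0 had an unadjusted p under 0.05, where 3.99% of all genes were called lower and 3.54% higher. The count was also 0 of 8 with all spots kept. In that setting every member but Srebf2 was lower at 8 h than at 45 min on both replicates, Insig1 by 0.62 and 0.29. With the replicate block as well, limma still called 0 of 8, with 5 at an unadjusted p under 0.05, beside 5136 of 21689 genes.

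**Figure D2:**
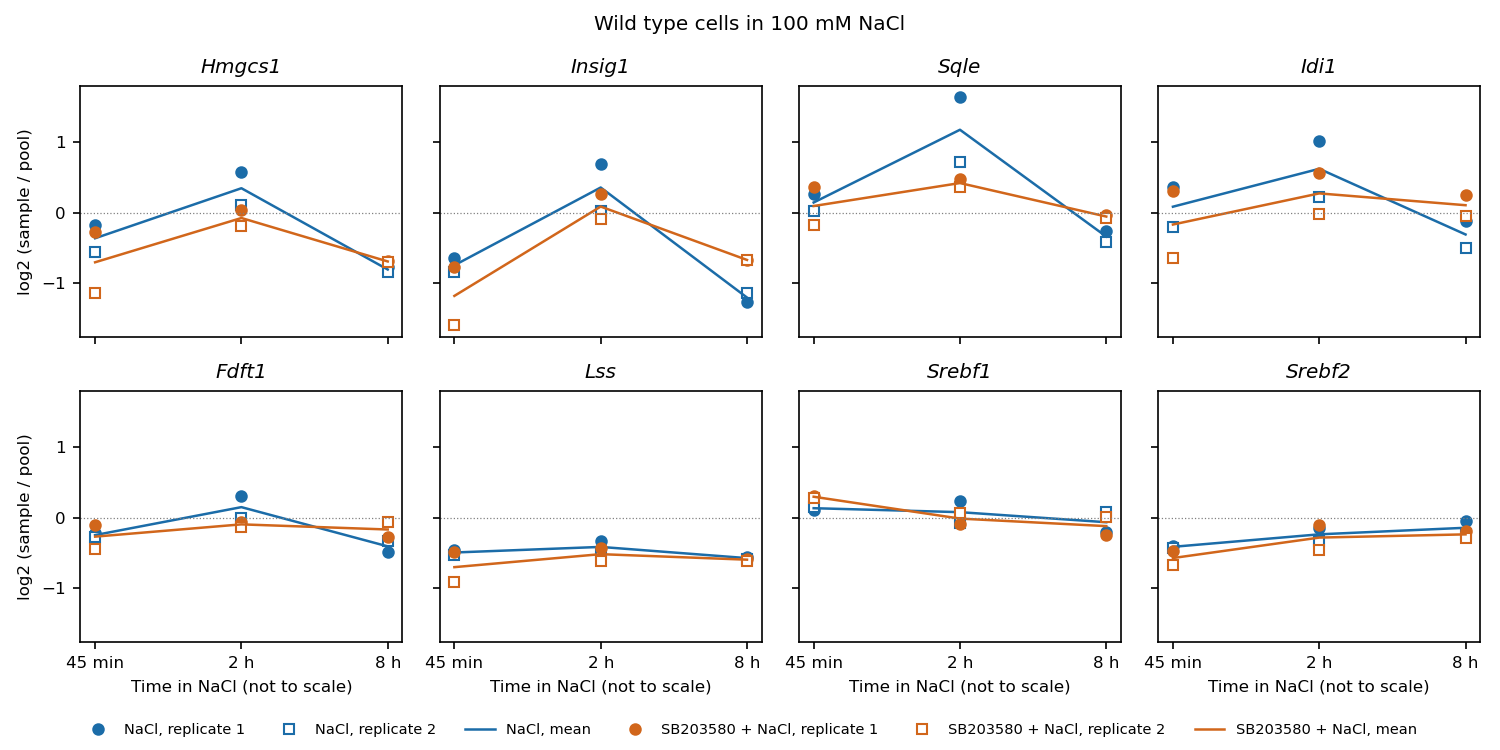
Log2 ratio over the pool of the 8 genes against the time in 100 mM NaCl, without and with SB203580, all spots kept; points are single arrays and lines join the means of 2. In wild type MEFs without SB203580, Sqle, Insig1, Hmgcs1, Idi1 and Fdft1 peaked at 2 h and were lower at 8 h, with falls between 0.56 and 1.56 on the log2 scale.

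Among the other stresses, anisomycin gave the values nearest to NaCl for 2 h and TNFα did not. Averaged over the 5 enzymes and Insig1, NaCl for 2 h stood highest of the 15 groups at 0.37 ± 0.39 (SD, n = 2), anisomycin in wild type MEFs was next at 0.26 ± 0.31, and NaCl for 8 h was lowest at -0.61 ± 0.04. Every pair of neighbours in this order overlapped on their single arrays, and NaCl for 8 h lay below NaCl for 2 h and below anisomycin on both arrays.

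With anisomycin, Idi1 was at 1.07 and 0.44, Sqle at 0.84 and 0.27, Insig1 at 0.73 and 0.09 and Hmgcs1 at 0.70 and 0.14. All 8 of these values were above the pool. After outlier spots were left out none of these 4 was measured on both anisomycin arrays, and with all spots kept limma called none of the 4 against the pool, where 6.51% of all genes were called higher. With the replicate block as well, all 4 were called: Idi1 at 0.75 (adjusted p = 4.4e-05), Sqle at 0.55 (adjusted p = 0.00528), Hmgcs1 at 0.42 (adjusted p = 0.0114) and Insig1 at 0.41 (adjusted p = 0.0337), where 10.6% of all genes were called higher. These calls against the pool leave out the shift between the replicates. With TNFα, Insig1 was below the pool at -0.23 and -0.78, Hmgcs1 was at 0.08 and -0.47, and Sqle was at 0.50 and -0.05. The direct difference of Insig1 between anisomycin and TNFα was 0.92 ± 0.30 with all spots kept (limma adjusted p = 0.713), and it was 0.87 ± 0.30 between NaCl for 2 h and TNFα (adjusted p = 0.382, or 0.042 with the replicate block, where 0.618% of all genes were called higher).

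Inhibition of p38 was examined by setting SB203580 plus stress against the stress alone. After stresses of up to 2 h, Hmgcs1, Insig1 and Idi1 were lower with SB203580 than without it in every replicate, and after NaCl for 8 h the differences of 5 members had the opposite sign. Most of these differences could not be tested in the principal setting. Hmgcs1 was not measured on all arrays of any of these comparisons, and Insig1 and Idi1 were only with NaCl for 2 h and 8 h. There limma called 0 of 18 measured differences of members, with 1 at an unadjusted p under 0.05 (Fdft1 with NaCl for 8 h). With all spots kept it called 0 of 40, with 2 at an unadjusted p under 0.05. Few genes at all were called here, 0.0204% lower with anisomycin, and 0.113% lower and 0.0928% higher with NaCl for 8 h.

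The widest gap was with anisomycin. Insig1 was at 0.73 and 0.09 without SB203580 and at -0.60 and -1.02 with it, so that the groups did not overlap. Hmgcs1 was at 0.70 and 0.14 without the inhibitor and at -0.19 and -0.82 with it, again without overlap. The share of all genes whose groups separated in this way was not counted. Idi1 was at 1.07 and 0.44 against 0.41 and -0.52, where the higher array with SB203580 reached almost the lower array without it. The differences with all spots kept were -1.22 for Insig1, -0.93 for Hmgcs1 and -0.81 for Idi1, not called (limma adjusted p = 0.557, 1 and 1). With the replicate block they were called (adjusted p = 0.019, 0.0384 and 0.0338), among 22 genes called lower of 21689, or 0.101% of all genes. With the scanning batch as a term in place of the replicate, Insig1 was called (adjusted p = 0.0229), and Hmgcs1 and Idi1 were not (adjusted p = 0.0635 and 0.0514).

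Over the 4 stresses of up to 2 h, the mean difference made by SB203580 was -0.51 ± 0.08 (SE) for Hmgcs1, -0.57 ± 0.10 for Insig1, -0.43 ± 0.07 for Idi1 and -0.40 ± 0.10 for Sqle with all spots kept and the replicate block. The first 3 were called (limma adjusted p = 0.0129, 0.017 and 0.0134), where 0.254% of all genes were called lower, and Sqle was not (adjusted p = 0.159). The same differences were not called without the block (adjusted p = 1 for Hmgcs1, 0.514 for Insig1 and 1 for Idi1). Fdft1, Lss, Srebf1 and Srebf2 had mean differences between -0.14 and 0.08. The 4 stresses were chosen after the values were seen. They leave out NaCl for 8 h, where Hmgcs1, Insig1 and Idi1 differed in the opposite direction. Over all 5 stresses, the fit with all spots kept and the replicate block called 1 of 8 members lower, among 66 of 21689 genes.

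After 8 h of NaCl the order was turned. Insig1 stood at -1.27 and -1.14 with NaCl alone and at -0.67 and -0.67 with SB203580 before it. Idi1 stood at -0.12 and -0.50 against 0.25 and -0.04, and Sqle at -0.26 and -0.42 against -0.03 and -0.08. Insig1, Sqle, Idi1, Hmgcs1 and Fdft1 did not overlap between these groups. The share of all genes without overlap was not counted. The changes in the difference made by SB203580 from 2 h to 8 h were 0.54 for Hmgcs1, 0.81 for Insig1, 1.04 for Sqle, 0.77 for Idi1 and 0.48 for Fdft1, and limma called 0 of 8 without the block or with it (adjusted p between 0.373 and 0.938 for these 5 with the block).

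**Figure D3:**
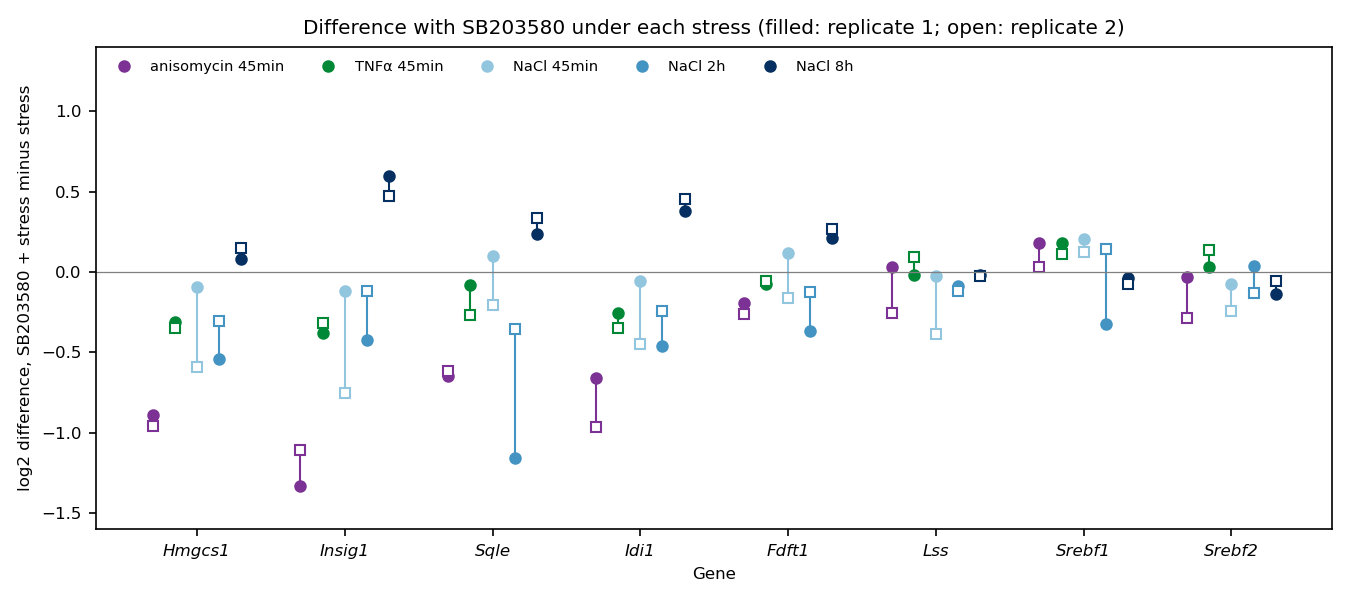
Log2 difference between SB203580 plus stress and the same stress alone, within each replicate, for the 8 genes and 5 stresses, all spots kept; values below 0 are lower with SB203580. Hmgcs1, Insig1 and Idi1 lay below 0 in both replicates for the 4 stresses of up to 2 h and above 0 after 8 h of NaCl.

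SB203580 alone left Sqle at 1.23 and 0.28, Idi1 at 0.71 and 0.19, Hmgcs1 at 0.28 and -0.47 and Srebf1 at 0.67 and 0.09. With all spots kept Sqle (0.75, limma adjusted p = 0.0364) and Srebf1 (0.38, adjusted p = 0.0156) were called above the pool, where 13.7% of all genes were called higher. The replicate block added Idi1 (0.45, adjusted p = 0.0016), beside 17.8% of all genes. With outlier spots left out, neither was measured on both arrays. Set against SB203580 alone, stress after SB203580 gave 0 calls of 17 measured, 0 of them at an unadjusted p under 0.05, and 0 of 40 with all spots kept, although with NaCl for 8 h 5.76% of all genes were called lower. With all spots kept and the replicate block, NaCl for 8 h lowered Sqle by -0.81 (adjusted p = 0.0098) and Hmgcs1 by -0.60 (adjusted p = 0.0253), where 7.31% of all genes were called lower. Insig1 was below the pool after SB203580 with anisomycin (-1.18), TNFα (-1.24), NaCl for 45 min (-1.46) and NaCl for 8 h (-0.84), each called by limma, where 6.33%, 3.91%, 7.97% and 10.7% of all genes were called lower. These means were -0.81, -0.86, -1.18 and -0.67 with all spots kept, each called again. The calls with outlier spots left out depended on single arrays. With anisomycin and with TNFα they were lost without either replicate (adjusted p between 0.0863 and 0.264), with NaCl for 45 min without replicate 2 (-0.77, adjusted p = 0.229), and with NaCl for 8 h in most of the fits that left out 1 array.

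With all spots kept and no block, Srebf1 was the 1 member called between p38α-/- and wild type MEFs under the same stress. In the principal setting no member was called in this comparison, and other fits called enzymes as well, as given below. Srebf1 encodes SREBP-1, the SREBP best known for fatty acid synthesis (chr11:60199084-60224186, GRCm38.p6, 1 probe). The knockout itself was read first: Mapk14 was between -2.24 and -0.94 on the 8 p38α-/- arrays (median -1.20) and between 0.03 and 1.31 on the 22 wild type arrays (median 0.33), without overlap. Srebf1 was at 0.94 and 0.67 in untreated p38α-/- MEFs, 0.78 and 0.90 with anisomycin, 0.79 and 0.76 with TNFα and 0.91 and 0.68 with NaCl for 2 h. These 8 arrays had a median of 0.78. The 22 wild type arrays ran from -0.24 to 0.67 with a median of 0.09, and the highest of them, SB203580 alone in replicate 1, reached the lowest p38α-/- array.

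Against the pool, Srebf1 was called by limma with TNFα at 0.78 ± 0.12 (adjusted p = 0.00502) and with NaCl for 2 h at 0.79 ± 0.12 (adjusted p = 0.0022), where 3.44% and 9.06% of all genes were called higher. The call with TNFα was lost without either replicate (adjusted p = 0.124 and 0.0547). In the remaining p38α-/- groups it was not measured on both arrays. Keeping all spots, it was called in all 4 p38α-/- groups, 1.71-fold to 1.79-fold above the pool, where 8.56% of all genes were called higher untreated, 8.12% with anisomycin, 4.07% with TNFα and 10.6% with NaCl. The comparison under the same stress gave 0 calls of 11 measured when outlier spots were left out, with 1 at an unadjusted p under 0.05, which was Srebf1 with NaCl for 2 h (0.71, adjusted p = 0.128), where 0.261% of all genes were called higher.

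Srebf1 was higher in p38α-/- than in wild type MEFs with all spots kept, by 0.77 ± 0.17 with anisomycin (limma adjusted p = 0.024) and by 0.71 ± 0.17 with NaCl for 2 h (adjusted p = 0.0457), where 0.738% and 0.397% of all genes were called higher. With TNFα the difference was 0.74 ± 0.17 (adjusted p = 0.0651, or 0.0328 with the replicate block, where 0.503% of all genes were called higher). Averaged over the 3 stresses it was 0.74 ± 0.10, or 1.67-fold (adjusted p = 6.9e-05), where 7.65% of all genes were called higher, and it was called in 30 of 30 fits that each left out 1 array. The single stresses were less firm, with 27 of 30 fits called for anisomycin, 8 for NaCl and 2 for TNFα. Within the 1 scanning batch that held both genotypes, p38α-/- replicate 1 exceeded wild type replicate 2 by 0.74, 0.82 and 0.98 with anisomycin, TNFα and NaCl.

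The enzymes were read in the same comparison. With all spots kept and the replicate block, Hmgcs1 was lower in p38α-/- than in wild type MEFs with anisomycin by -0.83 (limma adjusted p = 0.0078) and Idi1 by -0.53 (adjusted p = 0.0395), where 2.31% of all genes were called lower. Averaged over the 3 stresses, the same fit gave -0.47 for Hmgcs1, -0.55 for Sqle and -0.34 for Idi1, each called, where 9.5% of all genes were called lower. Without the block the same 3 differences had adjusted p values of 0.121, 0.11 and 0.39.

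The scanning batch moved with these differences. Within the batch that held both genotypes, Hmgcs1 differed by -0.26, 0.28 and 0.16 with anisomycin, TNFα and NaCl, Sqle by -0.12, 0.17 and 0.20, and Idi1 by 0.24, 0.48 and 0.54. With the scanning batch as a term, the mean over the 3 stresses was 0.01 for Hmgcs1, 0.01 for Sqle, 0.36 for Idi1 (adjusted p = 0.0348) and 0.40 for Lss (adjusted p = 0.0063), while Srebf1 stayed at 0.82 (adjusted p = 0.000325). These differences within the batch set 1 array against 1 for each stress, with different replicate numbers, and the part of the batch in the lower enzymes was not tested.

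Against untreated p38α-/- MEFs, 7 of the 8 members were higher on both replicates with NaCl for 2 h when all spots were kept, and none was called. Srebf1 was the exception. The share of all genes higher on both replicates was not counted. The median difference was 0.34 for the members and 0.06 for all genes, with all spots kept. Insig1 went from -0.27 and -0.17 to 0.57 and 0.47, a difference of 0.90 ± 0.40 when outlier spots were left out (limma adjusted p = 0.439). Sqle was at 0.41 and -0.38 untreated and at 0.92 and 0.17 with NaCl, and Srebf1 differed by 1.01-fold to 1.03-fold under each of the 3 stresses. In all, 0 of 14 measured differences were called, with 1 at an unadjusted p under 0.05, where NaCl raised 0.572% of all genes, and 0 of 24 with all spots kept, with 2 at an unadjusted p under 0.05. With all spots kept and the replicate block, NaCl for 2 h still gave 0 calls of 8 against untreated cells, with 5 at an unadjusted p under 0.05 and Insig1 nearest to the threshold (0.74, adjusted p = 0.0575). Against the pool, the same fit called Insig1 (0.52, adjusted p = 0.0094), Sqle (0.55, adjusted p = 0.0059) and Idi1 (0.33, adjusted p = 0.0179) beside Srebf1 with NaCl for 2 h, where 13.8% of all genes were called higher.

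**Figure D4:**
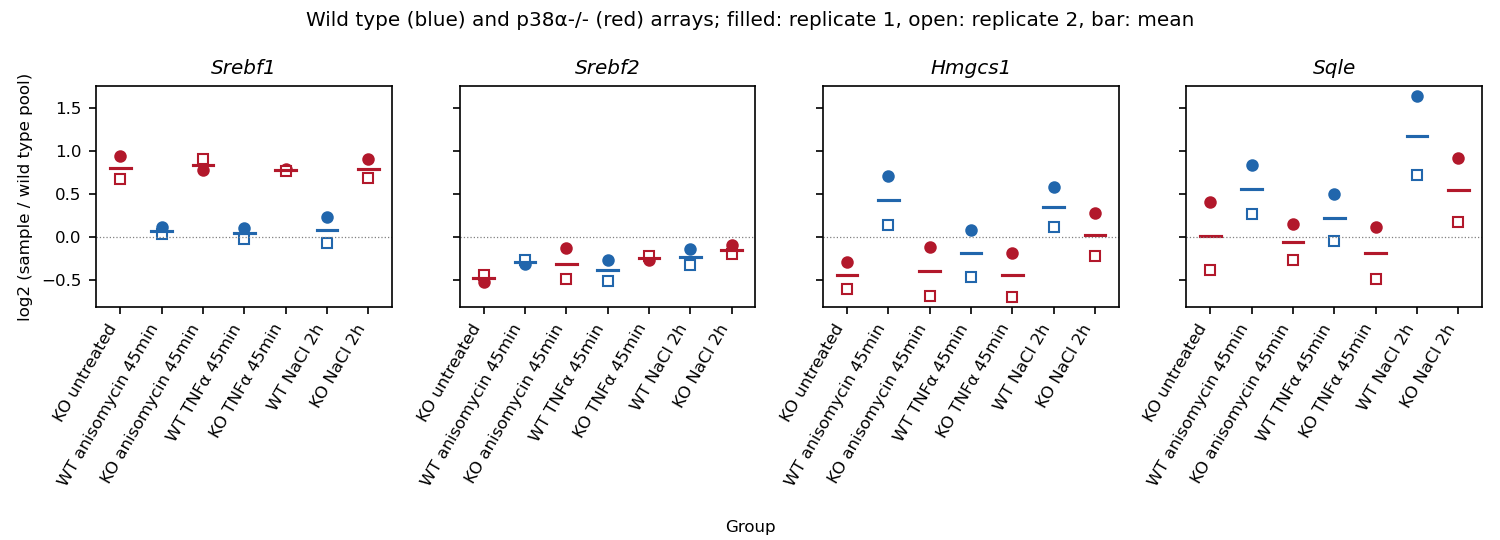
Log2 ratio over the pool of Srebf1, Srebf2, Hmgcs1 and Sqle in wild type and p38α-/- MEFs, all spots kept; each point is 1 array. Srebf1 lay between 0.67 and 0.94 on the 8 p38α-/- arrays and between -0.08 and 0.23 on the wild type arrays shown. The other 3 genes overlapped between genotypes. Over all 22 wild type arrays, most of them not shown, Srebf1 ran from -0.24 to 0.67 and so reached the lowest p38α-/- array.

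With all spots kept, the group means of Lss and Srebf2 spanned the narrowest ranges, -0.70 to -0.21 and -0.57 to -0.14. Lss encodes lanosterol synthase, which closes the sterol rings (chr10:76531565-76557139, GRCm38.p6, 3 probes). With all spots kept it lay below the pool on all 30 arrays, from -0.92 to -0.12. Srebf2 encodes SREBP-2, the SREBP best known for the cholesterol genes (chr15:82147269-82205379, GRCm38.p6, 3 probes). It also lay below the pool on all 30 arrays in that setting, from -0.67 to -0.05. With outlier spots left out, single arrays of Lss ran from -1.65 to 0.43 and Srebf2 reached 0.35.

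The probes of these genes disagreed on the ratio to the pool. The 3 Lss probes had medians of -0.43, 0.14 and -1.28 over the 30 arrays, and the 3 Srebf2 probes had medians of -0.42, -0.60 and -0.05. The 3 Hmgcs1 probes spread in the same way, at 0.31, -0.29 and -0.96. The 2 Idi1 probes stood at 0.70 and -0.30, and the 2 Insig1 probes at -0.05 and -0.76. An offset of a single probe that recurs in every group is part of each value against the pool. It drops out of a difference between groups where the same probes were averaged on each array, which holds with all spots kept. With outlier spots left out the probes averaged changed between arrays. For Insig1 the lower probe was used on 25 arrays and the other on 7, and Lss with NaCl for 2 h was at 0.43 and -1.15 with outlier spots left out, against -0.34 and -0.49 with all spots. The calls of Lss and Srebf2 below the pool with all spots kept, in 13 and 10 of 15 groups, hold these offsets. In that setting, between 1935 (p38α-/- MEFs with TNFα) and 6007 (SB203580 alone) of 21689 genes were called lower than the pool in a group. The values of Insig1, Idi1 and Hmgcs1 against the pool hold such offsets too. With outlier spots left out, 1 of the differences of Lss and Srebf2 from the pool was called, Srebf2 after SB203580 and NaCl for 45 min (-0.43, limma adjusted p = 0.0349). It was lost when the brightest probe alone was used (-0.22, adjusted p = 0.23).

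**Figure D5:**
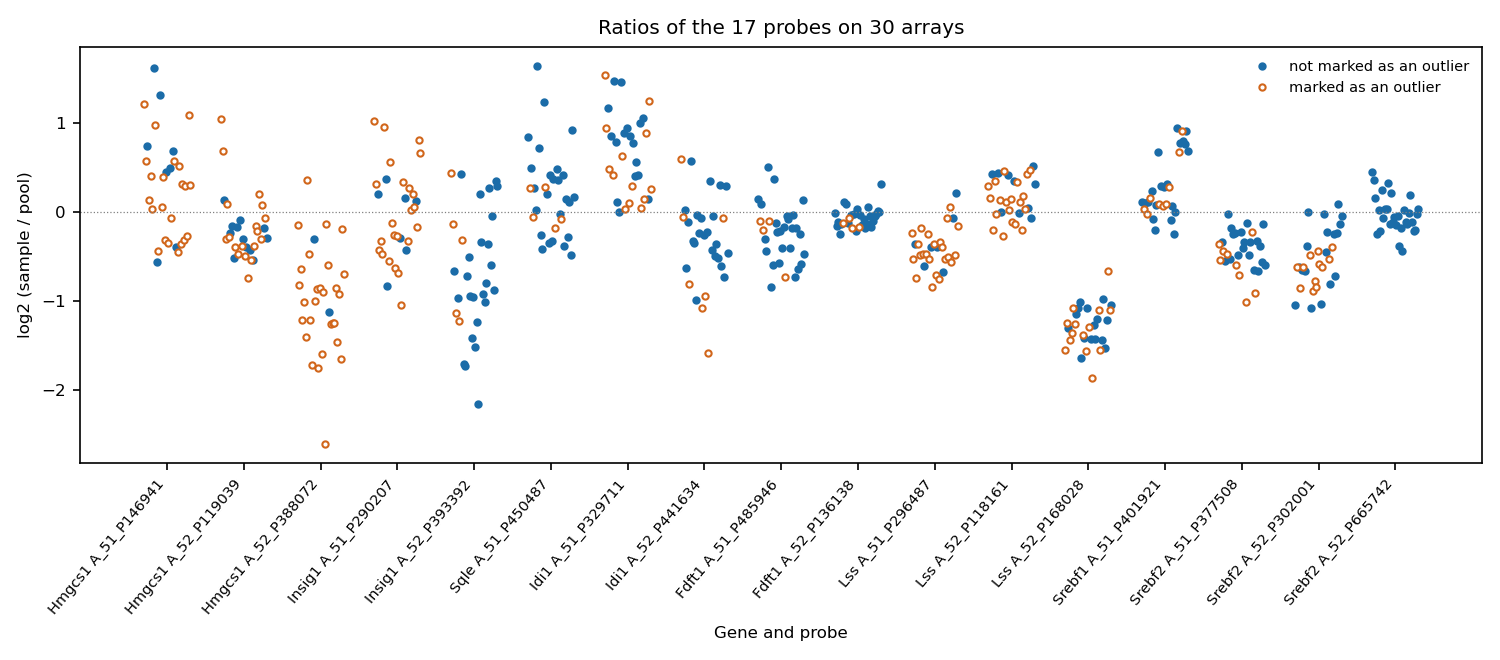
Log2 ratio over the pool of each of the 17 probes on the 30 arrays, grouped by gene; open symbols are spots that the image software marked as outliers, which came to 216 of 510. Probes of the same gene sit at different ratios, as for Lss with medians of -0.43, 0.14 and -1.28.

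The members differed in how far they moved together. As a description over the 15 group means with all spots kept, Pearson's r with the mean of the other synthesis genes was 0.94 for Hmgcs1, 0.93 for Idi1, 0.91 for Fdft1, 0.86 for Insig1 and 0.81 for Sqle, and it was 0.53 for Lss, 0.27 for Srebf2 and 0.12 for Srebf1. The 15 means share the pool and the scanning batches. The genes outside the group whose 15 means had the highest r with the mean of the 5 enzymes and Insig1 were Tmem41b (r = 0.943), Sc4mol (0.914), Clk4 (0.910), Clk1 (0.908) and BC005537 (0.897). Their SDs over the 15 groups were 0.09, 0.48, 0.27, 0.35 and 0.21 in this order, beside 0.28 for that mean. Tmem41b was at 0.02 with NaCl for 8 h, and so r does not show a like size of change.

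The members were set beside 4 further lists of their pathway, namely 17 other enzymes of sterol synthesis, 4 genes of SREBP processing, 12 of fatty acid synthesis and 11 of sterol transport, storage and efflux. From 2 h to 8 h of NaCl, 1 of 10 measured other sterol enzymes fell and 0 rose, and their median difference was -0.42 beside -0.01 for all genes. Mvd, which makes isopentenyl diphosphate from mevalonate diphosphate, fell by 0.64 ± 0.16 (limma adjusted p = 0.0245). Keeping all spots, 2 of 17 fell, Mvd and Sc4mol, and 1 rose, Ggps1. Sc4mol, a C4-methylsterol oxidase of the later steps, was at 1.72 and 0.90 after 2 h and at -0.55 and -0.70 after 8 h, without overlap, a fall of 1.93 (adjusted p = 0.0373). Ggps1, whose product feeds protein prenylation rather than sterols, was higher by 0.37 (adjusted p = 0.0362). With the replicate block as well, 6 of 17 fell and 1 rose, where 6.75% of all genes fell.

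Against the pool, NaCl for 8 h left 2 of 12 measured other sterol enzymes lower and 0 higher, where 11.2% of all genes were called lower and 11% higher, with Mvd at -0.65 (limma adjusted p = 0.000733) and Dhcr7, the last enzyme of one branch to cholesterol, at -0.79 (adjusted p = 0.0116). Of SREBP processing, 1 of 3 measured genes was lower, Mbtps1, the site-1 protease that makes the first cut in SREBP, at -0.53 (adjusted p = 0.00116), and Insig2, the second INSIG, was at 0.18. In fatty acid synthesis 3 of 10 were higher and 1 was lower. Elovl5, an elongase of polyunsaturated fatty acids, was at 0.90 (adjusted p = 9.6e-05), and Acac, an older name for the gene of acetyl-CoA carboxylase 1, was at -0.61 (adjusted p = 0.00886). Acac was at -0.26 with all spots kept and not called (adjusted p = 0.0606), so that 2 of 12 were higher, where 10.4% of all genes were, and 0 lower. In transport, 1 of 9 was higher and 0 lower, namely Osbp, a sterol carrier between endoplasmic reticulum and Golgi, at 0.71 (adjusted p = 0.0015), while Stard4 had the lowest mean of those measured at -0.29 (adjusted p = 0.308). In untreated p38α-/- MEFs, Hsd17b7, a ketosteroid reductase of the later steps, was at 1.02 (adjusted p = 0.0368), 1 of 2 other sterol enzymes called higher of 12, where 8.02% of all genes were called higher. It was at 0.55 with all spots kept and not called (adjusted p = 0.099).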

How the data were processed

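The members, the gene lists and the tests were chosen with earlier results of these data known. RNA of 30 MEF cultures was amplified, labelled with Cy5 and hybridised by the authors with the Cy3-labelled pool on Agilent 44K arrays, without a dye swap. Direction was read from the dyes and checked on Mapk14. The authors quantified spots with Agilent Feature Extraction, version 9.1 per the processing notes and 8.1.1.1 per the file headers. The deposited log10 ratio of Cy5 over Cy3, dye-normalised by that software, was multiplied by 3.322 to give log2. Deposited intensity values of both channels served for the normexp alternative, and the log2 values deposited as a series table, whose normalization and gene centring are not stated in the sources used here, for another. Its direction was that of the arrays (r between 0.785 and 0.952 per array).

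Control spots and spots marked as outliers were left out. Spots were averaged per probe, then probes per gene name. Groups were compared with limma 3.58.1 in R 4.3.3, 1 mean for each of 15 groups, with 15 residual degrees of freedom, and Benjamini-Hochberg adjustment over all genes measured on every array compared (adjusted p under 0.05). On simulated data, 98.1% of changed genes were recovered for NaCl for 8 h against the pool (16378 genes) with 4.94% false calls, and 91.2% for NaCl for 8 h against 45 min (12661 genes) with 5.5% false calls. These rates belong to those data only. Recovery and false calls at the size of the members' differences were not tested. Nor were they tested with the shift shared by replicates or with the spread of the pool. The number of arrays limits the precision.

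Same-numbered replicates deviated together in 55 of 55 pairs of wild type groups (r between 0.133 and 0.645) and in 6 of 6 pairs of p38α-/- groups (0.151 to 0.447), but across genotypes in 6 of 44, at a limit of 0.1. The replicate block was therefore fitted within each genotype.

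Beside the members and Mapk14, genes of the lists were named if past the threshold with a log2 difference of at least 1 against the pool with NaCl for 8 h or in untreated p38α-/- MEFs, and otherwise the highest and lowest of each list with NaCl for 8 h. The 5 genes most like the members were those with the highest r over 15 group means. Mvd, Ggps1 and the NaCl values of Sc4mol were named outside this rule, after their values were seen. All names in the 4 lists matched, 6 of them through older symbols. Results for some further genes are not reported here. Alternatives were normexp and loess, the series table, outlier spots kept, the brightest probe, only probes well above background, the replicate block, the scanning batch and each array left out. Outlier spots kept together with the block or the batch, the single probes and the means over stresses were added after the data were seen.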

Additional observations from a re-analysis of the deposited data

How the results depend on the processing

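Of the 13 differences of members called in the principal setting, 10 against the pool and 3 across NaCl times, none changed direction under the alternatives run. Srebf2 after SB203580 and NaCl for 45 min was lost with normexp and loess (-0.26, adjusted p = 0.136) and with the brightest probe (-0.22, adjusted p = 0.23), and Srebf1 in p38α-/- MEFs with TNFα was lost with the scanning batch as a term (0.73, adjusted p = 0.0596). Keeping the outlier spots changed the number of differences tested as well as the calls. The 10 calls of 74 tested against the pool became 40 of 120 with outlier spots kept, 41 with the series table, 67 with outlier spots kept and the replicate block, and 61 with outlier spots kept and the scanning batch. Calls over all genes rose as well, so the rise was not particular to the members. With anisomycin in wild type MEFs, 899 genes were called higher and 988 lower of 15720 in the principal setting. With outlier spots kept these were 1412 and 3982 of 21689, and 2305 and 4862 with the replicate block as well. The 3 calls across NaCl times became 7 of 24 with outlier spots kept and the replicate block, and 7 with the scanning batch. For SB203580 against stress alone, 0 became 3 of 40 with outlier spots kept and the replicate block, and 1 with the scanning batch. For stress after SB203580 against SB203580 alone, 0 became 1 with the series table, and 2 with outlier spots kept and either the replicate block or the scanning batch. For p38α-/- against wild type MEFs, 0 became 2 with the series table, 2 with outlier spots kept, 5 with the replicate block as well, and 2 with the scanning batch as well. For stress against untreated p38α-/- MEFs the count was 0 throughout. The replicate block alone, with outlier spots left out, gave 15 calls against the pool and 4 across NaCl times, and 0 in the other comparisons. The cause of these changes was not tested.

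With 1 array left out in turn, calls against the pool ran from 7 to 12 (36 to 41 with outlier spots kept), calls across NaCl times from 0 to 3 (0 to 4), calls for stress after SB203580 against SB203580 alone from 0 to 1 (0 to 2), and calls for p38α-/- against wild type from 0 to 0 (0 to 3). The count across NaCl times was 0 without NaCl for 2 h replicate 1, and without NaCl for 8 h replicate 2. It was 0 throughout for SB203580 against stress alone and for untreated p38α-/- MEFs. Arrays that leave a group with 1 replicate assume that it varies like the other groups.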
